A study of Homo sapiens with 6 samples.

Results

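The human genome holds a large family of genes named ZNF, and most of them encode C2H2 zinc finger proteins. A C2H2 finger is a short fold in which a pair of cysteines and a pair of histidines hold a zinc ion, and an array of fingers reads DNA bases. Many of these proteins also carry a KRAB domain, which binds the corepressor TRIM28 (KAP1). TRIM28 in turn brings the H3K9 methyltransferase SETDB1 and HP1 proteins to the bound DNA, often a transposable element. KRAB zinc finger genes stand in clusters, above all on chromosome 19, and neighbours in a cluster are often recent copies of each other. Well-expressed ZNF genes were taken as coding genes with a symbol of the form ZNF and a number, optionally followed by a letter from A to D, whose CPM (counts scaled to a total of 1000000 per library) averaged at least 10 over all 6 libraries. This rule gave 208 of 506 coding ZNF genes, and the level it selected on is described here without a test. All 208 genes passed the filter on low counts.

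Counts came from poly(A) RNA-seq of OE-19, a cell line from an adenocarcinoma of the esophagogastric junction (AEG). The 3 control libraries, titled shControl and with count columns named Puro, came from control cells. The 3 IGF2BP3 KD libraries came from cells in which an shRNA lowered IGF2BP3, an RNA-binding protein that reads N6-methyladenosine. The comparison asks which transcripts change when this reader is lowered. All libraries come from the same cell line. Which shRNA they carry and whether their cultures were separate are not given for them, so the p-values measure the spread between these libraries, which may be technical.

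*IGF2BP3* had 7416, 7363 and 6532 counts in control libraries and 777, 792 and 794 in IGF2BP3 KD libraries, a log2 fold change of -3.03 (SE 0.06). The libraries held 53424071 to 69989087 counts, and the ZNF genes took 0.678% to 0.695% of them. Epithelial genes were high in both groups, with *KRT8* at a mean of 2627 and 2524 CPM. The leukocyte genes *PTPRC* and *CD3E* had a mean under 0.05 CPM in each group. *COL1A1*, a collagen gene of fibroblasts, had 20.5 to 23.6 CPM in control and 29.2 to 33.5 CPM in IGF2BP3 KD libraries, while *COL3A1* and *DCN* stayed under 1 CPM. Its part in the results was not tested.

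Among the 208 genes, 105 encode a KRAB motif, at the start or the end of the A box, in the canonical transcript of GENCODE v44, and 103 do not. Both motifs were found in 61 genes and 1 of them in 44. The motif at the start of the A box is shown for 9 genes that were lower or higher in IGF2BP3 KD cells, as examples of the class on which the results below split. *ZNF268* is counted in the class by the motif at the end of the box and has no match at its start. Each line gives hg38 coordinates and the coding strand, with the 13 codons of the motif in capitals and 9 bases on either side.
ZNF286A (higher; chr17:15706390-15706446, plus strand): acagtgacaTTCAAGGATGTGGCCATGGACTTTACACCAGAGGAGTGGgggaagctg
ZNF141 (higher; chr4:343785-343841, plus strand): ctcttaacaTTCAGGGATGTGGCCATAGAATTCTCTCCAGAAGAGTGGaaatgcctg
ZNF33B (higher; chr10:42632362-42632418, minus strand): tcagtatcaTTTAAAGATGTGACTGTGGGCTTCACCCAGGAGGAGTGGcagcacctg
ZNF28 (higher; chr19:52808074-52808130, minus strand): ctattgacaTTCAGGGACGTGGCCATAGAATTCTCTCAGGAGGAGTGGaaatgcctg
ZNF283 (higher; chr19:43837056-43837112, plus strand): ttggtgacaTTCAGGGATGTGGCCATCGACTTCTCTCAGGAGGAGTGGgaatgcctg
ZNF841 (higher; chr19:52077025-52077081, minus strand): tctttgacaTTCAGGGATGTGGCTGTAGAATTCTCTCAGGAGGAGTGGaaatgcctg
ZNF202 (lower; chr11:123728203-123728259, minus strand): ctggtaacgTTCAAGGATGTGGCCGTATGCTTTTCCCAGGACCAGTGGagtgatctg
ZNF195 (lower; chr11:3371644-3371700, minus strand): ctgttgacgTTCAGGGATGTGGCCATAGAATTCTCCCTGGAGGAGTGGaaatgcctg
ZNF8 (lower; chr19:58285720-58285776, plus strand): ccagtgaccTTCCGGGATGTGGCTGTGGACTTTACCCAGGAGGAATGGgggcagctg

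Over all pairs of the named genes with the motif at the start of the box, 24 to 36 of its 39 bases were identical. The motif of *ZNF195*, which was lower, and that of *ZNF28*, which was higher, shared 36 bases, as many as *ZNF28* shared with its neighbour *ZNF841*. The median was 29 bases in 28 pairs of higher genes and 29 bases in 32 pairs of a higher and a lower gene.

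The fingers themselves are coded as follows in *ZNF664*, a lower gene without a KRAB motif, and in *ZNF28* and *ZNF268*, higher genes with one. The codons of the 2 cysteines and 2 histidines of the first finger are in capitals.
ZNF664 (chr12:124012157-124012219, plus strand): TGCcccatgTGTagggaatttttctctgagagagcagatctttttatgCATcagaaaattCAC
ZNF28 (chr19:52800966-52801028, minus strand): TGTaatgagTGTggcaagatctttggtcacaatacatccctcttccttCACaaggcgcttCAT
ZNF268 (chr12:133202518-133202580, plus strand): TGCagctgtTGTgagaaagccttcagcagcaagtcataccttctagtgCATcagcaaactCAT

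At an adjusted p under 0.05, 21 of the 208 ZNF genes were lower after IGF2BP3 KD, 32 were higher and 155 were not called. Of 19778 genes tested, the lower ones made up 10.6% and the higher ones 9.87%. Among the 9304 other coding genes of at least 10 CPM, 19.9% were lower and 16.6% were higher, against 10.1% and 15.4% of the ZNF genes. The ZNF genes had a median of 23.5 CPM and a median SE of 0.07 on the log2 scale, and the other coding genes 48.0 CPM and 0.06. Within 10 to 20 CPM, 6.67% of the ZNF genes were lower and 13.3% higher, against 10.1% and 12.5% of the other coding genes. Within 20 to 50 CPM the shares were 11.5% and 13.8% against 15.4% and 15.2%, and from 50 CPM they were 16.1% and 25.8% against 26.7% and 19.1%. In bulk RNA, fewer cells in a state and less RNA per cell cannot be told apart. The share of lower genes was below that of other coding genes in each range of levels, and the difference was not tested.

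The changes were small. The log2 fold changes had a median of 0.02, with quartiles at -0.10 and 0.16, and 2.88% of the ZNF genes reached 0.50 in size, against 5.03% of the other coding genes of at least 10 CPM. The 6 ZNF genes past that size were 5 higher genes and *ZNF721*, which was not called. All but *ZNF107* of the 53 called genes had control and IGF2BP3 KD libraries that did not overlap. The calls rest on the same libraries, so this separation adds no support to them. It was seen in 39.4% of ZNF genes, 53.2% of other coding genes of at least 10 CPM and 35.8% of all tested genes. All 21 lower genes and 31 of the 32 higher genes were also called by DESeq2. With each library left out in turn, 12 lower and 15 higher genes were called every time. Of the called genes described here, *ZNF117*, *ZNF227*, *ZNF318* and *ZNF436* lost the call in 3 of these 6 fits, and *ZNF8*, *ZNF37A*, *ZNF107*, *ZNF226*, *ZNF283*, *ZNF580*, *ZNF589*, *ZNF678* and *ZNF714* in 4. *ZNF84*, *ZNF260*, *ZNF417*, *ZNF451*, *ZNF468*, *ZNF605* and *ZNF621* lost it in 5.

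**Figure D1:**
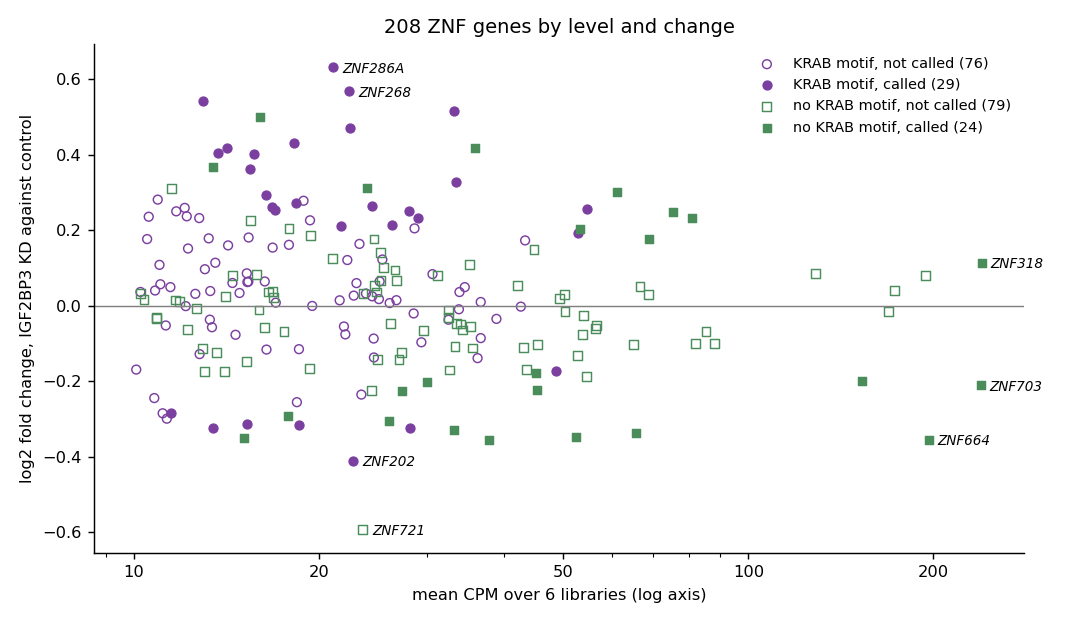
Log2 fold change of each ZNF gene (IGF2BP3 KD against control) against its mean CPM over 6 libraries on a log axis, with filled symbols for called genes, circles for 105 genes with a KRAB motif and squares for 103 genes without. Nearly all points lie within 0.50 of 0, and 22 of the 29 filled circles lie above 0, against 10 of the 24 filled squares.

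Genes with a KRAB motif were more often higher than lower. Of 105, 22 were higher (21.0%) and 7 were lower (6.67%), with a median log2 fold change of 0.06 and 71 of them above 0. Of 103 genes without the motif, 10 were higher (9.71%) and 14 were lower (13.6%), with a median of -0.03. Where the motif at both ends of the A box was required, 12 of 61 genes were higher and 3 were lower. The SCAN domain, which lets zinc finger proteins pair with each other, was found in 17 genes, *ZNF202* among them, with a median log2 fold change of -0.03. Of other coding genes of at least 10 CPM, 16.6% were higher and 19.9% lower. Median levels were 18.4 CPM with the motif and 29.98 CPM without. Within 10 to 20 CPM, 16.9% of 59 KRAB genes were higher and 6.78% lower. Other coding genes there had 12.5% and 10.1%, and 31 genes without the motif 6.45% each. Within 20 to 50 CPM, 22.7% of 44 KRAB genes were higher and 6.82% lower, against 15.2% and 15.4% of other coding genes. Of 43 genes without the motif there, 4.65% were higher and 16.3% lower. No difference between classes was tested.

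Within the KRAB class, the counts were set beside the number of fingers. In genes with 10 or more fingers, 18 of 69 were higher (26.1%) and 1 was lower (1.45%). With fewer fingers, 4 of 36 were higher (11.1%) and 6 were lower (16.7%). Of other coding genes of at least 10 CPM, 16.6% were higher and 19.9% lower. Without the motif, 3 of 29 genes with 10 or more fingers were higher and 5 were lower. With fewer fingers, 7 of 74 genes without the motif were higher and 9 were lower. This split at 10 fingers was made with the values known, and the differences were not tested. Across all 208 genes, the log2 fold change and the number of fingers had a Pearson's r of 0.15 and a Spearman's rho of 0.21, and neighbouring genes share sequence. On chromosome 19, 12 of 52 KRAB genes were higher and 2 were lower, and on other chromosomes 10 of 53 were higher and 5 were lower. Their median log2 fold changes were 0.09 and 0.01. Of the genes without the motif, 2 of 20 on chromosome 19 were higher and 2 were lower, with a median of 0.05. On other chromosomes, 8 of 83 genes without the motif were higher and 12 were lower, with a median of -0.05. These differences by chromosome were not tested.

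The counts were also taken without genes that share exon bases or sequence words with other genes. Whether such sharing affects the counts was not tested. The exons of 111 of the 208 genes overlap exons of another gene in GENCODE v44, and the strand setting of the counting is not given in the sources used here. Among 49 KRAB genes without such overlap, 7 were higher and 5 were lower, and among 48 genes without motif or overlap 4 were higher and 4 were lower. Among 49 KRAB genes with under 5% of their 31-base words in common with other transcripts, 6 were higher and 2 were lower. With control replicate 2 or control replicate 3 left out, 12 KRAB genes were higher, and without IGF2BP3 KD replicate 1 or replicate 3 there were 13 and 14. The number of lower KRAB genes was 3 without IGF2BP3 KD replicate 2, 5 without control replicate 3, and 4 without any of the other four libraries in turn.

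**Figure D2:**
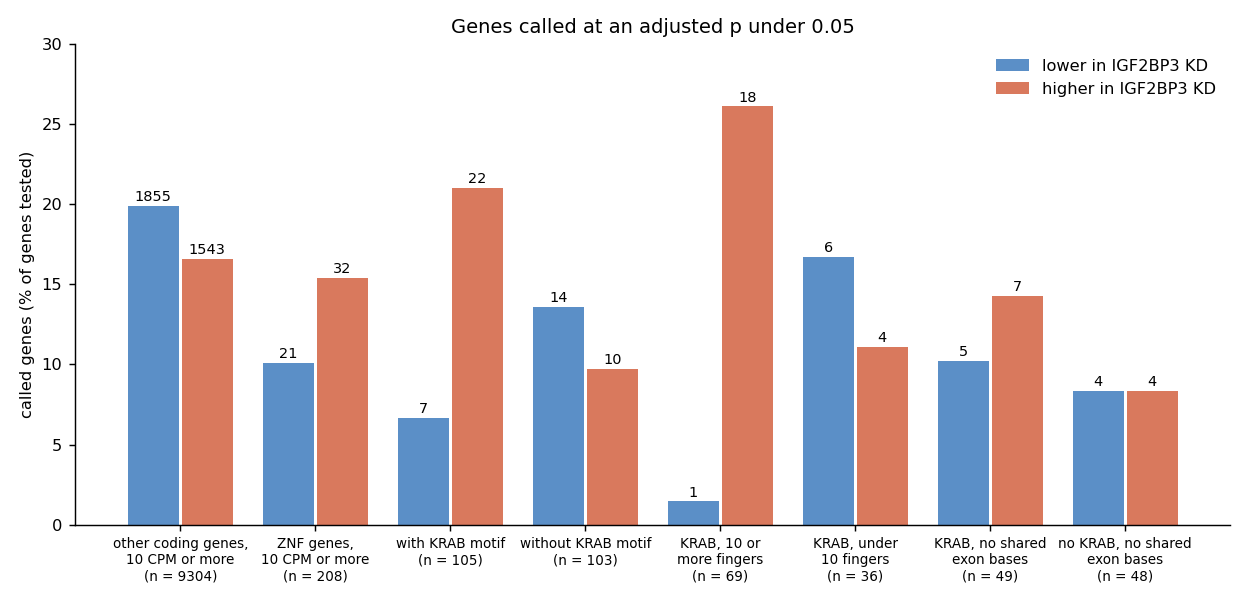
Percentage of each class called lower (blue) or higher (red) after IGF2BP3 KD, with the number of called genes above each bar and the number tested under it. Higher genes were 21.0% of the KRAB class and 9.71% of the class without KRAB, and 14.3% and 8.33% where genes with shared exon bases were left out. Lower genes were 6.67% and 13.6% of these classes, and 10.2% and 8.33% without shared exon bases.

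The 12 largest falls were in 4 genes with a KRAB motif and 8 without. *ZNF202*, a SCAN and KRAB protein known as a repressor of lipid metabolism genes, had 27.4, 26.4 and 24 CPM in control and 20.1, 19.8 and 18.6 CPM in IGF2BP3 KD libraries. Its log2 fold change was -0.41 (SE 0.07, adjusted p = 0.00173), and no IGF2BP3 KD library reached the lowest control library. *ZNF664* was the most abundant of the 12, with 229.5, 219 and 214 CPM in control and 170.3, 177 and 170.3 CPM in IGF2BP3 KD libraries (log2 fold change -0.36, SE 0.03, adjusted p = 3.48e-05). It lies on chromosome 12 and encodes 9 fingers in a protein of 261 residues, with little outside the fingers.

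*ZNF687* and *ZNF410* act with chromatin proteins. *ZNF687*, a partner of the chromatin reader ZMYND8, had 58.8, 59.1 and 58.4 CPM in control and 46.4, 46.2 and 45.9 CPM in IGF2BP3 KD libraries (log2 fold change -0.35, SE 0.04, adjusted p = 0.000237). *ZNF410*, an activator of the NuRD subunit gene *CHD4*, had 33.6, 40.4 and 36.9 CPM in control and 28.7, 29.9 and 29.6 CPM in IGF2BP3 KD libraries (log2 fold change -0.33, SE 0.07, adjusted p = 0.0063). The libraries of *ZNF687* had an SD of 0.339 and 0.267 CPM in the groups, and the control libraries of *ZNF410* one of 3.38 CPM. Summed with its overlapping genes *PI4KB* and *ZNF687-AS1*, *ZNF687* changed by -0.13 (adjusted p = 0.0114). *CHD4* itself had a mean of 308 ± 40.7 CPM in control and 291 ± 16.5 CPM in IGF2BP3 KD cells (SD, n = 3), and was not called (log2 fold change -0.09, adjusted p = 0.525).

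*ZNF507* had 77.4, 66.4 and 76.5 CPM in control and 58.2, 57.3 and 58.7 CPM in IGF2BP3 KD libraries, and shares no exon bases with another gene (log2 fold change -0.34, SE 0.06, adjusted p = 0.00192). *ZNF195*, a KRAB gene on chromosome 11, fell from 33.8, 30.8 and 29.4 CPM to 23.5, 25.5 and 26.0 CPM (log2 fold change -0.32, SE 0.07, adjusted p = 0.0072). *ZNF746* encodes PARIS, a KRAB protein that the ubiquitin ligase parkin removes, and had 16.9, 17.9 and 16.1 CPM in control and 12.6, 14.1 and 14.2 CPM in IGF2BP3 KD libraries (log2 fold change -0.31, adjusted p = 0.0184). Each of these 3 genes had its groups apart, and the call of *ZNF746* did not survive leaving out control replicate 2 or IGF2BP3 KD replicate 1. *ZNF142*, with 36 fingers the longest array among the falls, went from 28.6, 27.7 and 29.98 CPM to 22.3, 23.2 and 24.1 CPM (log2 fold change -0.31, adjusted p = 0.0047), and by -0.18 (adjusted p = 0.0148) when summed with *BCS1L* and *PLCD4*. *ZNF714* on chromosome 19 had a mean of 19.7 ± 1.83 CPM in control and 16 ± 0.959 CPM in IGF2BP3 KD cells (SD, n = 3, adjusted p = 0.0319).

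In 3 of the 12, the call was lost when the counts of overlapping genes were added. *ZNF740* had 42.1, 43.7 and 42.0 CPM in control and 31.3, 35.9 and 32.6 CPM in IGF2BP3 KD libraries (log2 fold change -0.36, adjusted p = 0.00187), but the sum with its overlapping genes *ITGB7* and *CSAD* changed by -0.10 (adjusted p = 0.219). *ZNF513*, a gene linked to inherited retinal degeneration, had means of 17.0 ± 0.197 and 13.3 ± 0.582 CPM (SD, n = 3, log2 fold change -0.35), and its sum with *SNX17* changed by -0.11 (adjusted p = 0.0819). *ZNF8* had 15.8, 14 and 15.1 CPM in control and 11.3, 12.2 and 12.4 CPM in IGF2BP3 KD libraries (log2 fold change -0.32, adjusted p = 0.0182). Its sum with *ZNF8-ERVK3-1* and a further overlapping gene changed by 0.14 and was not called (SE 0.08, adjusted p = 0.262). The sum holds all counts of those genes too, so it cannot give the direction of *ZNF8* itself.

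The 12 largest rises held 9 genes with a KRAB motif. *ZNF286A* had 17.0, 15.7 and 16.9 CPM in control and 24.9, 27.7 and 24.2 CPM in IGF2BP3 KD libraries, a log2 fold change of 0.63 (SE 0.07, adjusted p = 0.000126). It shares 68.1% of its 31-base words with *ZNF286B*, so the reads of these copies may have been divided or lost in counting. *ZNF268*, a KRAB protein with 24 fingers, rose from 17.9, 18.5 and 17.7 CPM to 28, 25.2 and 26.9 CPM (log2 fold change 0.57, SE 0.07, adjusted p = 0.000118). Both were called with any library left out.

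*ZNF141* on chromosome 4 had 11.0, 10.8 and 9.90 CPM in control and 17.0, 13.7 and 15.4 CPM in IGF2BP3 KD libraries (log2 fold change 0.54, SE 0.10, adjusted p = 0.00232). *ZNF33B* on chromosome 10 had 29.7, 26.1 and 26.0 CPM in control and 39.9, 38.7 and 38.3 CPM in IGF2BP3 KD libraries (log2 fold change 0.52, SE 0.07, adjusted p = 0.000212). Its paralog *ZNF33A*, with which it shares 19.7% of its words, changed by 0.17 and was not called (adjusted p = 0.143), while its neighbour *ZNF37A* was higher by 0.23 (adjusted p = 0.0191). Whether the change of *ZNF33B* differs from that of *ZNF33A* was not tested.

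On chromosome 19, *ZNF28* rose from 19.6, 17.8 and 19 CPM to 26.0, 26.9 and 25.2 CPM (log2 fold change 0.47, SE 0.07, adjusted p = 0.000452). *ZNF841*, in the same cluster, had 12.9, 13.1 and 14.4 CPM in control and 19, 17.4 and 17.1 CPM in IGF2BP3 KD libraries (log2 fold change 0.40, SE 0.08, adjusted p = 0.00443). The KRAB gene *ZNF283* had means of 11.8 ± 1.51 and 15.6 ± 0.869 CPM (SD, n = 3, adjusted p = 0.0153). In all of these the IGF2BP3 KD libraries lay above every control library, though *ZNF283* lost its call in 4 of 6 fits with a library left out.

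*ZNF514* and *ZNF589* were the other KRAB genes of the 12. *ZNF514* on chromosome 2 had 16, 14.4 and 16.1 CPM in control and 23.1, 19.6 and 19.97 CPM in IGF2BP3 KD libraries (log2 fold change 0.43, SE 0.08, adjusted p = 0.00406). *ZNF589* on chromosome 3 had 14.1, 10.7 and 11.6 CPM in control and 16.5, 15.5 and 16.7 CPM in IGF2BP3 KD libraries (log2 fold change 0.42, SE 0.11, adjusted p = 0.0156), and was called in 2 of the 6 fits with a library left out.

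The 3 rises without a KRAB motif were *ZNF774*, *ZNF219* and *ZNF580*. *ZNF219*, a partner of SOX9 in cartilage cells, had 28.9, 31.9 and 31.4 CPM in control and 42.4, 40.0 and 40.7 CPM in IGF2BP3 KD libraries (log2 fold change 0.42, SE 0.06, adjusted p = 0.000478). *ZNF774* had 15.3, 13.4 and 11.1 CPM in control and 17.2, 19.4 and 19.8 CPM in IGF2BP3 KD libraries (log2 fold change 0.50, SE 0.11, adjusted p = 0.00801). *ZNF580* had 10.3, 13.2 and 11.8 CPM in control and 16, 14.1 and 15.3 CPM in IGF2BP3 KD libraries, and its sum with *ZNF581* and *CCDC106* was not called (log2 fold change 0.37 alone, 0.19 summed, adjusted p = 0.114 summed).

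**Figure D3:**
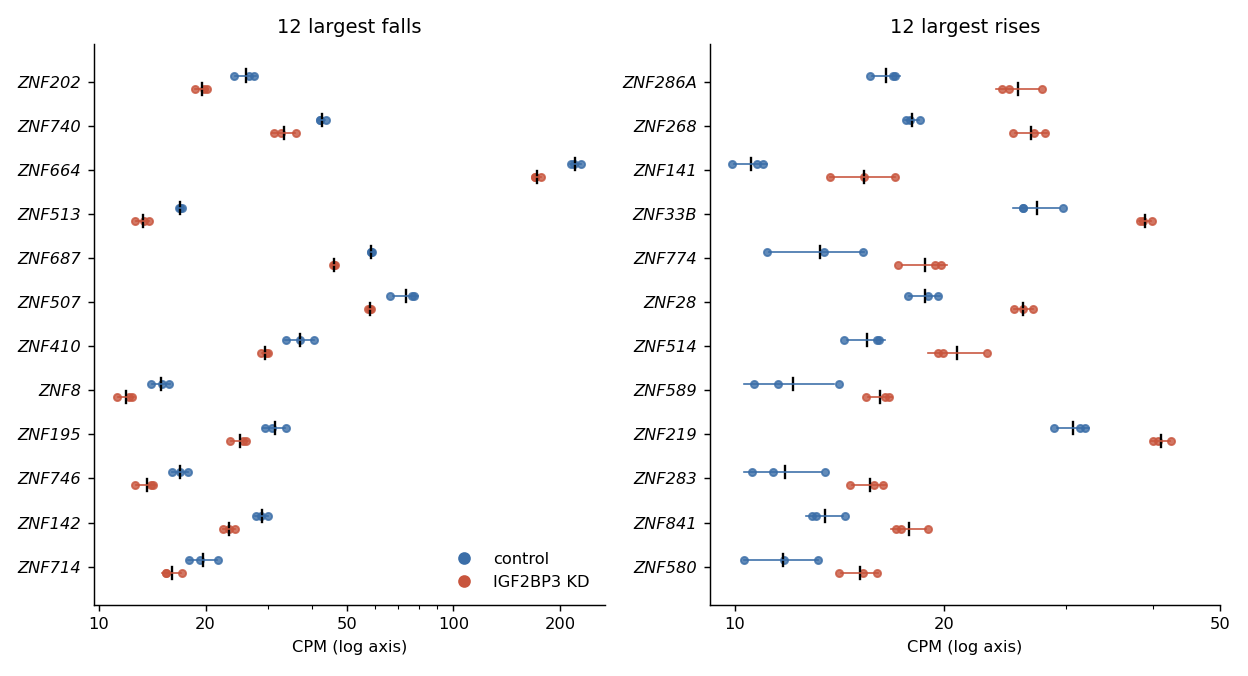
CPM on a log axis in each of 3 control (blue) and 3 IGF2BP3 KD (red) libraries for the 12 largest falls and 12 largest rises among ZNF genes, with black ticks for the mean and horizontal lines for the SD. The genes were chosen among called genes whose groups do not overlap, which left out ZNF107, and the fitted changes run from -18.4% to -24.8% in the falls and from 28.9% to 54.9% in the rises.

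Neighbouring genes were compared in 10 clusters, each of 4 or more ZNF genes with at most 500000 bases between neighbours. At the end of chromosome 12 (chr12:132918306-133214832), *ZNF605*, *ZNF26*, *ZNF84*, *ZNF891* and *ZNF268* all had log2 fold changes above 0, with a median of 0.25. *ZNF268*, *ZNF84* and *ZNF605* were called, at 0.57, 0.25 (adjusted p = 0.0494) and 0.26 (adjusted p = 0.0385), and the calls of *ZNF84* and *ZNF605* were each lost in 5 of 6 fits with a library left out. *ZNF605* was also not called when summed with its overlapping genes. *ZNF26* was nearly level, with 10.9, 10.5 and 10.6 CPM in control and 12.8, 9.2 and 11.0 CPM in IGF2BP3 KD libraries.

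In the chromosome 19 cluster from 43596392 to 44500524, 8 of 9 genes were above 0, and *ZNF283*, *ZNF226* and *ZNF227* were called. In that from 51571283 to 53461862, 11 of 12 genes were above 0, and *ZNF841*, *ZNF28* and *ZNF468* were called. The cluster at the end of the chromosome, from 57191500 to 58481230, held 9 of 12 genes above 0, with *ZNF587* and *ZNF417* higher and *ZNF8* lower. *ZNF417* shares 46.4% of its words with *ZNF587*, so reads may have been divided between them, and its call was lost in 5 of 6 fits with a library left out.

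On chromosome 7 the signs were mixed. In the cluster from 64666099 to 65401136, *ZNF107* was lower, with 21.4, 17.9 and 22.5 CPM in control and 18.1, 16.3 and 15.2 CPM in IGF2BP3 KD libraries that overlap them (log2 fold change -0.32, SE 0.10, adjusted p = 0.0427). *ZNF138* (-0.30, adjusted p = 0.0596) and *ZNF92* (-0.26, adjusted p = 0.0936) were not called. *ZNF117*, between them, was higher in every IGF2BP3 KD library, at 57.4, 56.6 and 56.9 CPM against 52.0, 48.2 and 48.4 CPM (log2 fold change 0.20, SE 0.05, adjusted p = 0.0131). In the cluster from 149126416 to 149867479, *ZNF746* was called among 7 genes. The clusters of 5 genes on chromosome 16 and 4 genes on chromosome 8 had medians of 0.02 and -0.07.

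**Figure D4:**
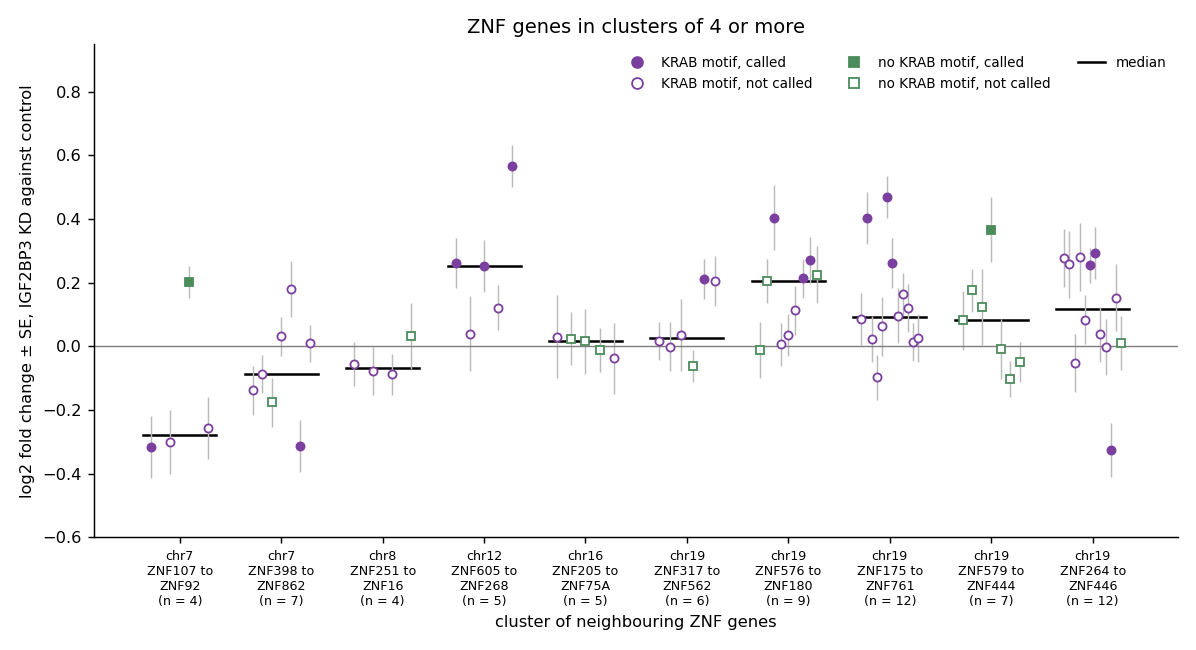
Log2 fold change with SE of each ZNF gene in 10 clusters of neighbouring genes, in order along each cluster, with filled symbols for called genes, circles for genes with a KRAB motif, squares for genes without, and a black line at the cluster's median. The chromosome 12 cluster has the highest median (0.25) and the first chromosome 7 cluster the lowest (-0.28).

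Several well-expressed members have roles outside repression by KRAB. Of 25 members listed with such a role or with a known target, 4 were lower (*ZNF687*, *ZNF410*, *ZNF703* and *ZNF451*), 1 was higher (*ZNF609*) and the median log2 fold change was -0.05. These are 16% and 4%, against 10.6% and 9.87% of all tested genes. Among other coding genes of at least 10 CPM the shares were 19.9% and 16.6%, and within 20 to 50 CPM 15.4% and 15.2%. The 25 members had a median of 44.8 CPM, and the difference was not tested. The list leaves out *ZNF202*, *ZNF219*, *ZNF318* and *ZNF746*, which were called and whose roles are given here. *ZNF703*, a corepressor of the NET family that is amplified in breast cancer, stood at 241, 267 and 261 CPM in control and 221, 224 and 219 CPM in IGF2BP3 KD libraries (log2 fold change -0.21, SE 0.04, adjusted p = 0.00214). *ZNF451*, a SUMO ligase, fell by 0.18 on the log2 scale (adjusted p = 0.0394), and was called in 1 of the 6 fits with a library left out. *ZNF609*, a partner of the cohesin loader, had 66.8, 70.9 and 68.8 CPM in control and 79.2, 84.8 and 81.2 CPM in IGF2BP3 KD libraries (log2 fold change 0.25, SE 0.04, adjusted p = 0.00227).

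Further genes of this list were not called. *ZNF207* (BuGZ, a spindle and kinetochore protein) had a mean of 170.0 ± 1.70 CPM in control and 168 ± 5.89 CPM in IGF2BP3 KD cells (SD, n = 3, log2 fold change -0.02). *ZNF638*, a silencer of unintegrated viral DNA, changed by 0.08 (adjusted p = 0.357), and *ZNF622*, a factor in maturation of the large ribosomal subunit, by -0.05 (adjusted p = 0.619). *ZNF598*, a ubiquitin ligase that marks collided ribosomes, changed by -0.19 (SE 0.07) and was not called (adjusted p = 0.0907).

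Per kilobase of exon, *ZNF703* had the highest level of the 208 genes, at 72.1 CPM per kb, followed by *ZNF146* at 41.8, *ZNF664* at 31, *ZNF318* at 24.7 and *ZNF367* at 23.9 CPM per kb. The median over the 208 genes was 3.81 CPM per kb. *ZNF318*, known for its part in the splicing of IgD in B cells, was at 234, 232 and 226 CPM in control and 252, 248 and 247 CPM in IGF2BP3 KD libraries, a rise of 0.11 (SE 0.03, adjusted p = 0.0128). *ZNF146* (0.04, adjusted p = 0.55) and *ZNF367* (-0.10, adjusted p = 0.0894) were not called. Just above the minimum of 10 CPM stood *ZNF254*, *ZNF16* and *ZNF426* with means of 10.1, 10.2 and 10.2 CPM, and just below it *ZNF420*, *ZNF808* and *ZNF500* with 9.88, 9.83 and 9.79 CPM. *ZNF420* was higher by 0.64 (adjusted p = 0.000907), past the 0.63 of *ZNF286A*, the largest rise among the 208 genes. *ZNF808* (0.12) and *ZNF500* (-0.16) were not called.

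The 7-base words GATTACT and ACACATC in 3′ UTRs had been noticed earlier in these data, GATTACT among genes that fell and ACACATC among genes that rose, so their presence in members is a description. The words were searched on the transcript strand alone and cannot overlap each other. GATTACT stood in the 3′ UTR of 24 of the 208 genes (11.5%), against 8.19% of the other coding genes of at least 10 CPM, whose 3′ UTRs were shorter, with a median of 1388 against 1970 bases. ACACATC stood in 24 genes (11.5%) against 9.83%. Each site below is shown with the word in capitals and 8 bases on either side.
ZNF740 (lower; chr12:53191619-53191641, plus strand): gtagagagGATTACTgtcctgga
ZNF664 (lower; chr12:124013894-124013916, plus strand): ccttcattGATTACTgtgtatca
ZNF507 (lower; chr19:32384396-32384418, plus strand): gtagttctGATTACTcatttatg
ZNF292 (lower; chr6:87262373-87262395, plus strand): gatatcaaGATTACTtttcacaa
ZNF260 (higher; chr19:36513457-36513479, minus strand): aaatcatgGATTACTtaaaaatt
ZNF141 (higher; chr4:382862-382884, plus strand): tacacaagACACATCtacaagaa
ZNF436 (higher; chr1:23361494-23361516, minus strand): ttgggcacACACATCttcccttc

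Among the 24 genes with GATTACT, 6 were lower (*ZNF740*, *ZNF664*, *ZNF507*, *ZNF678*, *ZNF292* and *ZNF621*) and 2 were higher (*ZNF260* and *ZNF780B*), with a median log2 fold change of -0.04. In other coding genes with this word, 44.8% of 762 were lower and 8.01% higher. Among the 24 genes with ACACATC, 4 were higher (*ZNF436*, *ZNF141*, *ZNF609* and *ZNF587*) and 2 were lower (*ZNF678* and *ZNF451*), against 36.9% higher and 14.3% lower of 915 other coding genes. The words were noticed in these data, so the shares of other coding genes that hold them are no independent comparison. Of the ZNF genes with GATTACT 25% were lower and 8.33% higher, and of those with ACACATC 8.33% and 16.7%. Of all other coding genes of at least 10 CPM, 19.9% were lower and 16.6% higher. Of 163 ZNF genes with neither word, 26 were higher (16%) and 14 were lower (8.59%). Among other coding genes with neither word the shares were 15% and 18.4%. The KRAB genes with neither word were higher in 18 of 80 and lower in 6 of 80 cases. *ZNF207* holds GATTACT at 2 places and ACACATC at 1 and was close to 0.

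Both higher genes with GATTACT had groups that did not overlap. *ZNF260* had 21.2, 21.1 and 21.7 CPM in control and 29.3, 26.7 and 23.3 CPM in IGF2BP3 KD libraries (log2 fold change 0.31, SE 0.08, adjusted p = 0.0199). Its value lay between 0.23 and 0.39 with a library left out, and the call was lost in 5 of 6 fits. *ZNF780B* had 31.2, 27.4 and 30.4 CPM in control and 36.2, 36.8 and 38.6 CPM in IGF2BP3 KD libraries (log2 fold change 0.33, SE 0.06, adjusted p = 0.00387). The call of *ZNF780B* was kept in every such fit.

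RNA of the TRIM28 pathway was described with a list of 27 tested genes, of which 9 fell and 1 rose after IGF2BP3 KD. No protein was measured. Besides *TRIM28* and *SETDB1*, the list holds genes of DNA methylation, HUSH subunit genes and *ZNF274*, itself a ZNF member. The 27 genes had a median log2 fold change of -0.07. Lower and higher genes were 33.3% and 3.7% of the list, against 19.9% and 16.6% of other coding genes of at least 10 CPM. From 50 CPM, 26.7% of the other coding genes were lower and 19.1% were higher. Their median of 99.0 CPM was near the 99.2 CPM of the list, and the difference was not tested. *TRIM28* itself had 392, 413 and 416 CPM in control and 364, 357 and 361 CPM in IGF2BP3 KD libraries (log2 fold change -0.17, SE 0.03, adjusted p = 0.00134). *SETDB1* had 66.4, 66.9 and 68.5 CPM in control and 53.3, 54.3 and 55.0 CPM in IGF2BP3 KD libraries (log2 fold change -0.31, SE 0.04, adjusted p = 0.000419). The groups of both genes were apart.

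The largest falls of the list were in genes of DNA methylation. *DNMT1*, the maintenance methyltransferase, had a mean of 179.6 ± 3.86 CPM in control and 122 ± 2 CPM in IGF2BP3 KD cells (SD, n = 3, log2 fold change -0.56, adjusted p = 8.13e-07). *UHRF1*, which brings *DNMT1* to hemimethylated DNA, changed by -0.46 (SE 0.05, adjusted p = 8.97e-05). Both are also known as genes of proliferating cells.

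The remodelling ATPase *SMARCAD1* fell by 0.41 (adjusted p = 0.000665), the NuRD deacetylase *HDAC2* by 0.38 (adjusted p = 0.000212) and *SUMO2* by 0.32 (adjusted p = 3.68e-05). *SUV39H1* (-0.26, adjusted p = 0.0438) and the TRIM28 relative *TRIM33* (-0.20, adjusted p = 0.012) were also lower, and the call of *SUV39H1* was lost in most fits with a library left out. *CBX5*, the gene of HP1 alpha, was the 1 higher gene, with 135, 126 and 134 CPM in control and 147, 149.9 and 146 CPM in IGF2BP3 KD libraries (log2 fold change 0.17, SE 0.04, adjusted p = 0.00696). The HUSH subunit genes *TASOR*, *MPHOSPH8* and *PPHLN1* lay between 0.00 and 0.04 and were not called. *ZNF274*, a KRAB member that brings *SETDB1* to the 3′ ends of zinc finger genes, had 13.1 ± 0.444 CPM in control and 13.5 ± 1.10 CPM in IGF2BP3 KD cells (SD, n = 3, log2 fold change 0.04, adjusted p = 0.825).

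**Figure D5:**
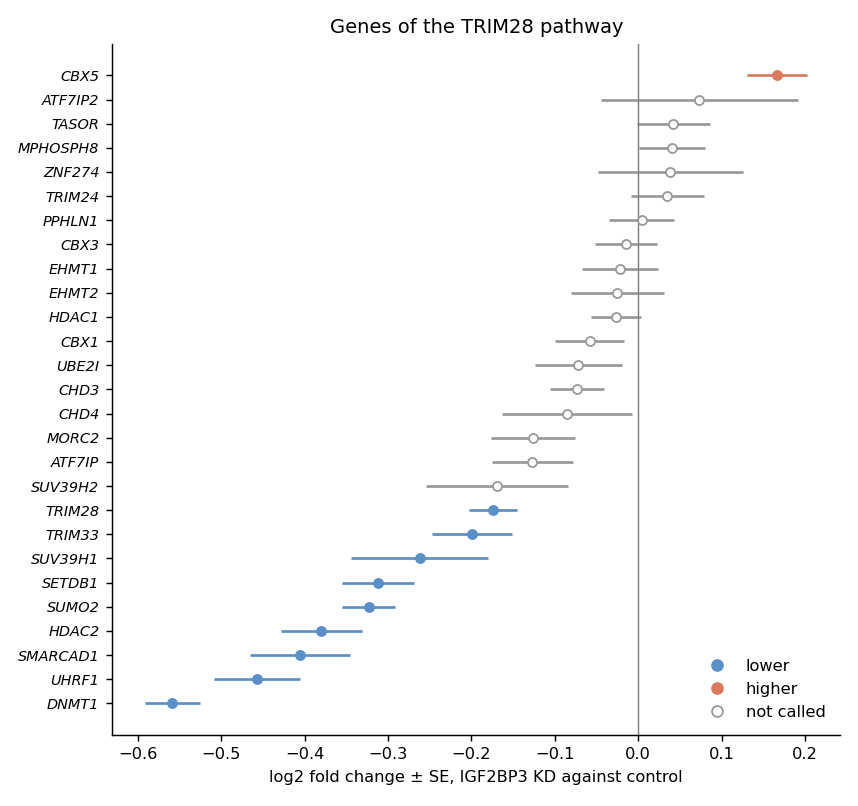
Log2 fold change with SE (IGF2BP3 KD against control, 3 libraries each) of 27 genes of the TRIM28 pathway, in order, with blue for lower, red for higher and open grey for not called. DNMT1 is lowest at -0.56, TRIM28 lies at -0.17 and CBX5 is the only higher gene at 0.17.

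A single library decided 1 value. *ZNF721*, on chromosome 4, had 1909, 1897 and 1756 counts in control libraries and 1477, 1654 and 159 counts in IGF2BP3 KD libraries, so its log2 fold change of -0.59 had an SE of 0.54 and was not called (adjusted p = 0.526). Without the last of these libraries, IGF2BP3 KD replicate 3, it was -0.07 (SE 0.07). Its exons share 1647 bases with those of *ABCA11P*, which had 317, 244 and 330 counts in control and 132, 192 and 169 counts in IGF2BP3 KD libraries. In *ZNF593*, a coding ZNF gene under the minimum of 10 CPM, counts were at 0 in 4 libraries: it had 983, 810 and 0 counts in control and 0 counts in each IGF2BP3 KD library. The overlapping *ZNF593OS* had 205, 320 and 1175 counts in control and 960, 1236 and 1183 in IGF2BP3 KD libraries, and the sums of the pair were 1188, 1130 and 1175 against 960, 1236 and 1183. How the reads of overlapping genes were assigned in each library is not given in the sources used here.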

How the data were processed

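RNA-seq libraries of OE-19 cells (3 control, 3 IGF2BP3 KD) were compared. Per the labels, the authors processed reads with fastp, HISAT2 and featureCounts on hg38, with versions, annotation release and strand setting not given in the sources used here, and deposited raw counts per gene. After 132 repeated entries were left out, 60480 gene identifiers remained. Columns were matched to libraries by the name in each library's description, which is Puro with a number for the controls.

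Counts were scaled with TMM factors (0.992 to 1.01) and tested with edgeR 4.0.16 in R 4.3.3 (glmQLFit, glmQLFTest, without a block, filterByExpr at min.count 10 and min.total.count 15), with Benjamini-Hochberg adjustment over 19778 genes and a threshold of 0.05. The script was tested on simulated data. The square root of the common dispersion was 0.148. In the minimum for members, the ranges of levels and the means of genes beside the minimum, CPM is a count divided by the library's total and multiplied by 1000000. The CPM of single libraries, group means, SDs, medians and CPM per kb were scaled further. For these, the divisor was the library's total over genes passing the filter on low counts, multiplied by its TMM factor. An exact test with 3 against 3 libraries cannot go below p = 0.1, so none was used.

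KRAB and SCAN motifs, fingers, 3′ UTRs and overlaps come from canonical transcripts of GENCODE v44 on hg38, since no RefSeq protein table was used here. A domain coded on other transcripts only is missed. Named genes are the 12 largest falls and 12 largest rises among called members without overlap between groups, the 5 highest CPM per kb and the 3 members on either side of the minimum. Other genes were named after their values were seen. The members, lists and classes were chosen with earlier results of these data known. Replicate numbers were not used to pair the libraries, and the labels do not say whether they do. Correlations of same-numbered libraries, on deviations from group means, were -0.03, -0.10 and -0.08. These values cannot show how the libraries were prepared.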

Additional observations from a re-analysis of the deposited data

How the results depend on the processing

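Counts of lower and higher genes fell at an adjusted p under 0.01, to 11 and 14 of all 208 genes, to 2 and 9 with a KRAB motif and to 9 and 5 without. Without genes that share exon bases, a smaller set, 9 were lower and 11 higher in all, 7 KRAB genes were higher, and 4 genes without the motif were lower and 4 higher. Where both KRAB motifs were needed, 3 were lower and 12 higher, and 20 genes counted as without KRAB were higher. With total counts alone 4 KRAB genes were lower, and from 20 CPM 20 genes were higher. The median log2 fold change of 0.0246 became 0.0177 with DESeq2, 0.0417 with total counts alone, 0.0152 with no low-count filter, 0.0324 from 5 CPM, 0.00202 from 20 CPM and 0.0172 without shared exon bases. With each library left out, which leaves fewer samples, 14 to 18 genes were lower and 18 to 29 higher, 3 to 5 and 12 to 20 with KRAB, 10 to 14 and 5 to 9 without, the median lay from 0.0111 to 0.0236, and the TRIM28 list gave 8 to 10 lower and 1 higher. The count of higher genes was 18 when control replicate 3 or IGF2BP3 KD replicate 1 was left out, and 20 for control replicate 2. Summed with overlapping genes, 20 were lower and 31 higher. The sum for ZNF8 had the reverse sign, at 0.14, and was not called (adjusted p = 0.262). In the fit with the replicate block, 18 genes were lower and 30 higher (KRAB 6 and 19), and it removed 9 of the 63 calls of members and TRIM28 pathway genes. Another scaling moved the median of all genes by at most 0.02. Depth limits calls at low levels: the median SE of members was 0.09 at 10 to 20 CPM and 0.05 from 50 CPM.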
